A study of Mus musculus with 8 samples.

Results

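The genes described are 10 genes of the epithelial cell surface: the membrane mucins Muc1, Muc4, Muc16 and Muc20, the uroplakins Upk1a, Upk1b, Upk2, Upk3a and Upk3b, and the galectin gene Lgals4. Each was measured by 1 probe set that carries its symbol and no other, and together they are 10 of 19937 genes with such a probe set. They were selected on their measured values in these same arrays, as apical surface genes with large falls or with an effect of siKlf4 that differed with TGFβ. Their own differences are therefore given as a description with no test, and their counts are set beside the share of all genes called.

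Expression was measured with Affymetrix gene arrays in NMuMG, an untransformed epithelial cell line of the mouse mammary gland that can undergo epithelial to mesenchymal transition (EMT). There were 8 arrays in 4 groups of 2: siControl and siKlf4 cells kept without TGFβ, and siControl and siKlf4 cells given 2 ng/ml TGFβ for 2 days. All cells were transfected, the controls with a control siRNA and the others with a pool of siRNAs against Klf4, a zinc-finger transcription factor of differentiated epithelia. The cells are a subclone of the line, and the origin of replicate arrays (separate or shared transfections) is not given in the sources used here. The p-values then cover only how far these arrays spread, possibly for technical reasons, and their small number limits the precision.

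Membrane mucins are long, heavily O-glycosylated proteins that stand out from the apical surface of epithelia, where they lubricate and shield the cell and pass signals inward. Uroplakins are known for the plaques of the bladder's luminal membrane, in which the tetraspanins Upk1a and Upk1b each pair with a partner, Upk2 for Upk1a and Upk3a or Upk3b for Upk1b, before they leave the endoplasmic reticulum. Galectins bind the galactose-containing sugars that such proteins carry, and galectin 4, the product of Lgals4, is best known from the gut epithelium, where it takes part in the transport of glycoproteins to the apical membrane.

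The stretch before the gene start is shown for 3 genes, because Klf4 is known to bind boxes with a CACCC or GC-rich core. Muc1 and Upk3b are shown as genes with wide differences between groups, and Muc4 as one with small differences. The sequences are RefSeq promoter windows of GRCm38.p6, given from 250 bases before the annotated start to the base before it. Muc1 lies at chr3:89228806-89229055, Upk3b at chr5:136038246-136038495 and Muc4 at chr16:32735636-32735885, all on the plus strand. Capitals mark matches to CACCC, to the GC box GGGCGG or to the motif TATAAA, each searched on both strands (a match to the first of them on the minus strand reads GGGTG).
Muc1: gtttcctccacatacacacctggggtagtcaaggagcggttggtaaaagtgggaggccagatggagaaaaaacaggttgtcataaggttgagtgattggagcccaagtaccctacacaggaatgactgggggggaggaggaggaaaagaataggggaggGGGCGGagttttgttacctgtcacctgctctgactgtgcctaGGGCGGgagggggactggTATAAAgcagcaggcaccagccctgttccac
Upk3b: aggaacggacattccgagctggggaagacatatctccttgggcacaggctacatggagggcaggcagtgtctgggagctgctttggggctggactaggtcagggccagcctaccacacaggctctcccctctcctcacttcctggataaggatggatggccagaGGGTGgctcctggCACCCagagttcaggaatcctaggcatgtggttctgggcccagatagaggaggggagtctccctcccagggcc
Muc4: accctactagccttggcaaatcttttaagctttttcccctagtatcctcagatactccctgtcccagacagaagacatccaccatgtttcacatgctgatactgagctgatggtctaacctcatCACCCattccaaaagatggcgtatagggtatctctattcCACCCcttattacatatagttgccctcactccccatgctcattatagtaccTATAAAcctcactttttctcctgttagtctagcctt
The Muc1 stretch held 2 GC boxes, at -91 and -49 from the start, and a TATAAA at -31, but no CACCC. The Upk3b stretch held a CACCC at -73 and another on the opposite strand at -86. Muc4 held a CACCC at -126 and at -87 and a TATAAA at -36.

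Of the 10 genes, 8 matched a window of 300 bases (250 before and 50 after the start), and Upk1b and Upk2 did not. CACCC was present in 5 of the 8, namely Muc4, Muc16, Muc20, Upk1a and Upk3b, against 57.5% of all 32851 windows. The longer form CCACACCC, which contains CACCC, was in 0 of the 8 and in 3.56% of all windows. GGGCGG was in 3 of the 8 (Muc1, Upk3a and Lgals4) and in 35.7% of all, and TATAAA in 2 of the 8 and in 13.6% of all. Of the 5 genes with a CACCC, Upk3b was the only one whose group means spanned more than 1 log2 unit, and the windows of Muc1 and Lgals4, which spanned more, held none. These are matches of letters within a short window and say nothing of where Klf4 sits.

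For Klf4 itself, the log2 values were 8.60 and 8.43 in siControl arrays and 8.03 and 7.91 in those labelled siKlf4. With TGFβ the values were 7.46 and 7.46 in siControl and 7.43 and 7.24 in siKlf4. The difference was -0.54 ± 0.10 (SE) without TGFβ, with a limma adjusted p of 0.00369, and -0.13 ± 0.10 with TGFβ, with a limma adjusted p of 0.444. Klf4 was thus separated by the TGFβ label more than by the siKlf4 label. Of 14 measured genes of a list of known TGFβ-induced genes, 11 were called higher and 0 lower in each siKlf4 contrast, with medians of 1.43 and 1.79. Of all genes, 9.98% were called higher and 9.71% lower without TGFβ, and 12.3% and 11.9% with it. Under the TGFβ label in siControl cells 0 of the 14 were called higher and 1 lower by limma, beside 5.81% and 6.65% of all genes. At an unadjusted p under 0.05 it was 2 higher and 2 lower, and after cyclic loess normalization 0 were called higher and 1 lower. Every direction below is therefore a difference between arrays as they are labelled. Whether each label belongs to its arrays was not tested, so it is uncertain which treatment a siKlf4 or TGFβ difference belongs to.

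The keratins of simple epithelium were bright in every array, with Krt8 between 13.04 and 13.42, and so was Cdh1, the gene of E-cadherin, between 10.15 and 10.89. Epcam, between 3.88 and 4.09, and the splicing regulator gene Esrp1, between 3.73 and 4.06, lay among the dimmest 30% of genes. The lowest of the array medians was 4.90. Of the 9 mammary epithelium markers that include these genes, limma called 3 higher and 1 lower in each siKlf4 contrast. Without and with TGFβ, Krt7 was higher by 1.11 and 0.82, Krt18 by 0.54 and 0.55 and Krt8 by 0.30 and 0.36. Krt19, another keratin of simple epithelium, was the one called lower, with differences of -0.99 and -1.04.

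Lgals4, Muc1, Upk1b and Upk3b were the genes with a large range, each with group means that spanned more than 1 log2 unit. Lgals4 and Muc1 were lower under siKlf4 with or without TGFβ. Upk1b was also lower in both. All 4 genes had their lowest mean in siKlf4 cells with TGFβ. Lgals4 and Muc1 had their highest mean in siControl cells without TGFβ, and Upk1b and Upk3b in siControl cells with it. For Lgals4 the siControl groups were nearly level, at 12.10 without and 12.04 with TGFβ, a difference of -0.05 ± 0.16. The other 6 genes had values between 2.98 and 6.04, and no difference larger than 0.46.

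**Figure D1:**
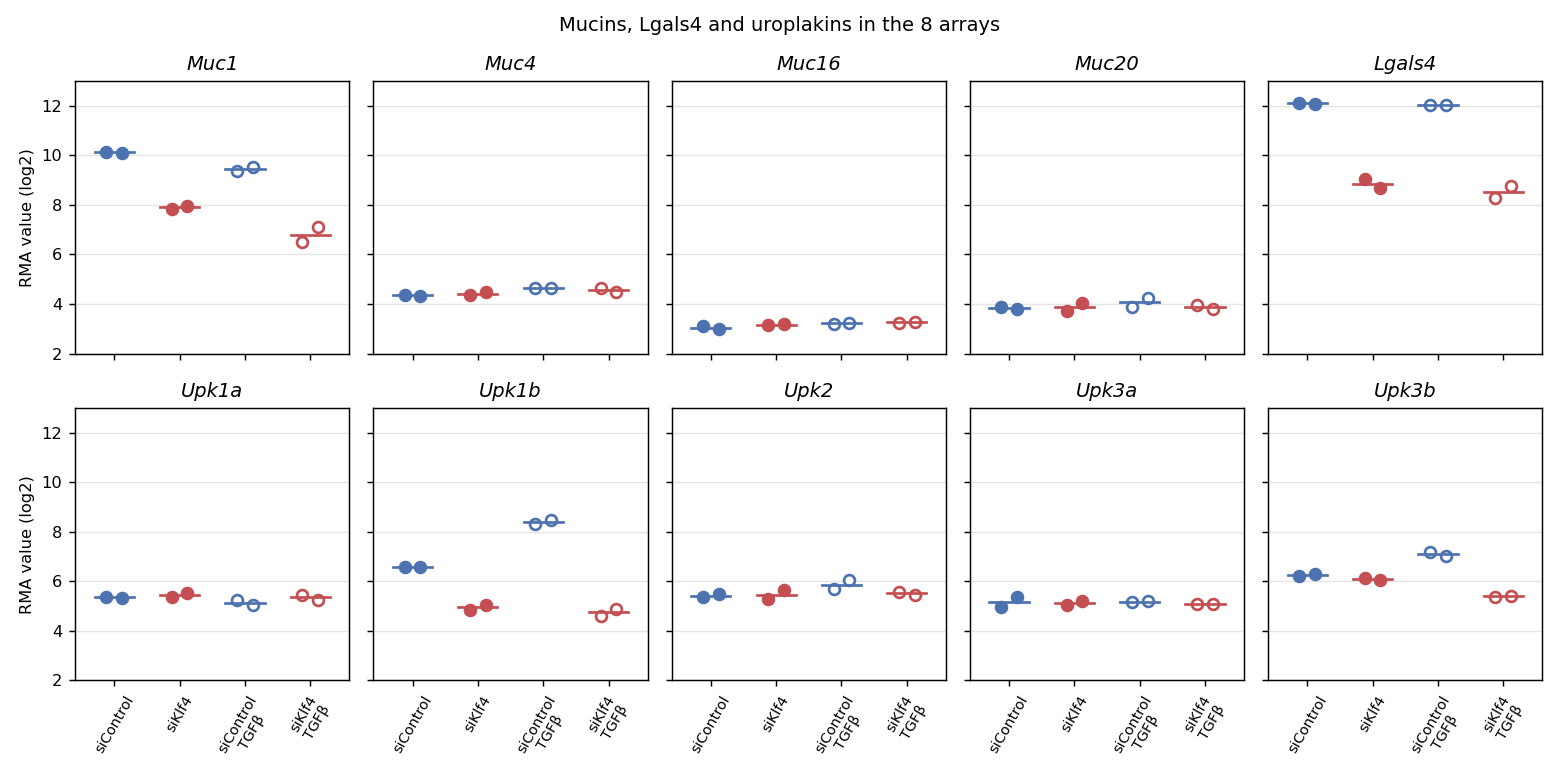
Deposited RMA values (log2, vertical axis) of the 10 genes in the 8 arrays, by group (horizontal axis); points are arrays, short lines are group means of 2 arrays, blue is siControl, red is siKlf4, and open points had TGFβ. Lgals4, Muc1, Upk1b and Upk3b have group means that span more than 1 log2 unit, while the other 6 genes stay between 2.98 and 6.04. The 2 siKlf4 groups overlap for Lgals4 and for Upk1b. Levels of different genes come from different probes and are not comparable.

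Lgals4 had log2 values of 12.11 and 12.08 in siControl and of 9.03 and 8.69 in siKlf4 arrays without TGFβ. In cells given TGFβ, siControl arrays had 12.05 and 12.04 and siKlf4 arrays 8.27 and 8.75. All 4 siControl arrays thus lay above all 4 siKlf4 arrays, and the former were nearly level with one another. The difference under siKlf4 was -3.24 ± 0.16 (SE, 2 arrays a group) without TGFβ and -3.54 ± 0.16 with it, which is 9.45-fold and 11.6-fold lower. The TGFβ difference was -0.05 ± 0.16 in siControl and -0.35 ± 0.16 in siKlf4, where the groups overlap, and the interaction, the siKlf4 difference with TGFβ minus that without, was -0.30 ± 0.22. Without siKlf4 with TGFβ replicate 1 or 2, this TGFβ difference in siKlf4 was -0.11 or -0.58 and the interaction -0.06 or -0.53. Without siKlf4 replicate 1 or 2, they were -0.18 or -0.52 and -0.13 or -0.46. In order, the levels ran from siControl through siControl with TGFβ to siKlf4 and siKlf4 with TGFβ, and the 2 siKlf4 groups cannot be separated. Mice of some strains carry Lgals6, a near-identical copy of Lgals4, so the probe set may read both, and Lgals6 had no probe set of its own here.

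Muc1, the membrane mucin of simple and glandular epithelia, had log2 values of 10.15 and 10.11 in siControl and 7.85 and 7.95 in siKlf4. Under TGFβ it had 9.37 and 9.52 with siControl and 6.51 and 7.09 with siKlf4, so that no 2 of the 4 groups overlap. The siKlf4 difference was -2.23 ± 0.16 without TGFβ and -2.64 ± 0.16 with it, or 4.68-fold and 6.25-fold lower. Muc1 was also lower under TGFβ within each siRNA, with differences of -0.68 ± 0.16 in siControl and -1.10 ± 0.16 in siKlf4. It was the only one of the 10 genes lower by more than 0.5 in all 4 contrasts of 2 groups, and its order was siControl, siControl with TGFβ, siKlf4, then siKlf4 with TGFβ. The interaction was -0.42 ± 0.23. The arrays of siKlf4 with TGFβ were the widest apart, with an SD of 0.41, and without replicate 1 or 2 of that group the interaction was -0.13 or -0.71. A level of RNA from a whole culture cannot tell fewer cells that make a transcript from less of it in each cell.

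Upk1b, a tetraspanin uroplakin, had log2 values of 6.60 and 6.60 in siControl and 4.85 and 5.05 in siKlf4. Among arrays with TGFβ, the siControl values were 8.33 and 8.47 and the siKlf4 values 4.60 and 4.89. The groups of siControl with TGFβ, siControl and siKlf4 followed each other without overlap, while the 2 siKlf4 groups overlapped. The siKlf4 difference was -1.65 ± 0.11 without TGFβ (3.14-fold lower) and -3.65 ± 0.11 with it (12.6-fold lower). The TGFβ difference was 1.80 ± 0.11 in siControl, 3.48-fold higher, and -0.20 ± 0.11 in siKlf4. The latter was between -0.34 and -0.06 when 1 of the 4 siKlf4 arrays was left out, the ends being without siKlf4 with TGFβ replicate 2 and replicate 1. The interaction was -2.00 ± 0.16, and most of it lay in the siControl arrays, which were higher with TGFβ. The siKlf4 values of Upk1b, between 4.60 and 5.05, lay near the lowest array median, 4.90. Whether they stand above background was not tested. A TGFβ difference in siKlf4 could therefore be missed, and the size of the interaction depends on it.

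Upk3b, one of the partners of Upk1b, had log2 values of 6.23 and 6.28 in siControl and 6.13 and 6.07 in siKlf4 without TGFβ. Given TGFβ, siControl cells had 7.19 and 7.02 and siKlf4 cells 5.38 and 5.41. Without TGFβ the groups did not overlap but lay only 0.09 apart at their nearest arrays, whereas with TGFβ they stood far apart. The siKlf4 difference was -0.15 ± 0.09 without TGFβ and -1.71 ± 0.09 with it, 3.27-fold lower. The TGFβ difference of Upk3b ran in opposite directions, 0.85 ± 0.09 in siControl (1.80-fold higher) and -0.71 ± 0.09 in siKlf4 (1.64-fold lower). The interaction was -1.56 ± 0.12.

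**Figure D2:**
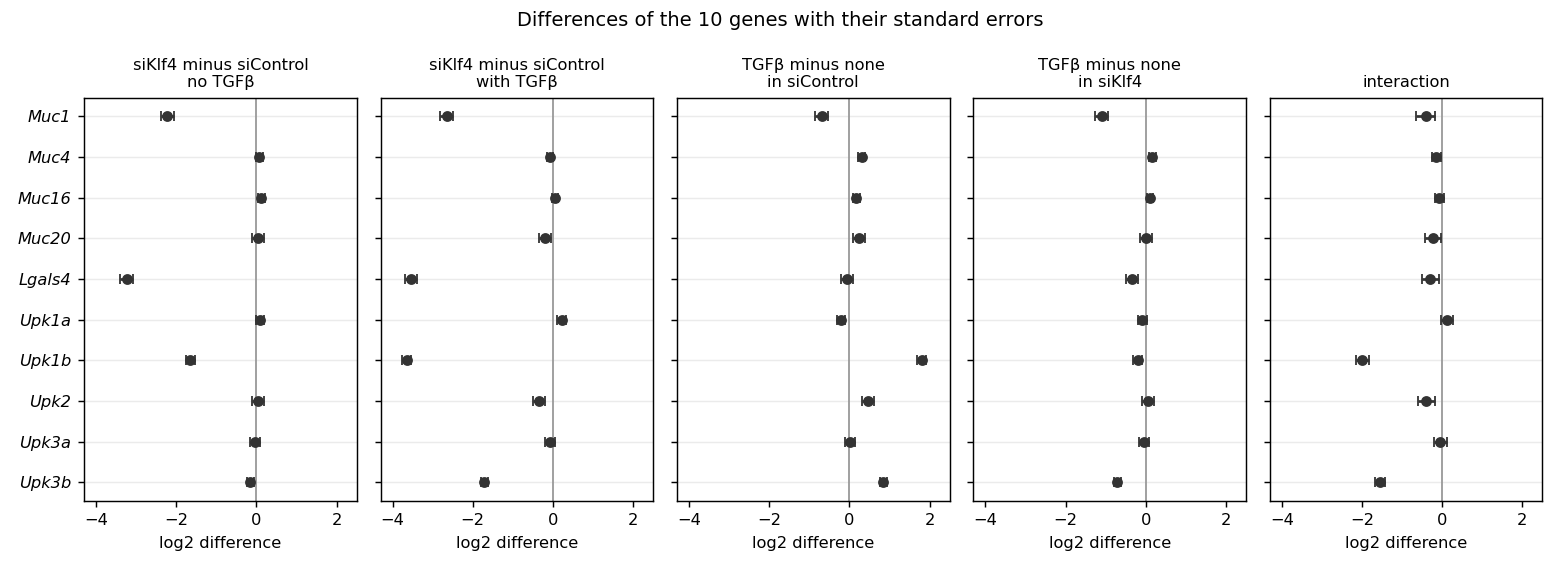
Log2 differences (horizontal axis) of the 10 genes in the 5 contrasts, with bars of 1 standard error from limma and 2 arrays a group. Lgals4 and Muc1 lie far below 0 in both siKlf4 contrasts, and Upk1b and Upk3b have interactions of -2.00 and -1.56.

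Among the mucins with small differences, Muc4, a membrane mucin that can bind the receptor ErbB2, had values of 4.36 and 4.34 in siControl, 4.66 and 4.64 in siControl with TGFβ and 4.38 to 4.66 in siKlf4 arrays. Its difference under TGFβ in siControl was 0.30 ± 0.08, against 0.16 ± 0.08 in siKlf4. Muc16, the CA125 antigen that binds mesothelin, lay between 2.98 and 3.29 over the 8 arrays. Muc20 lay between 3.71 and 4.26. Muc16 and Muc20 were among the dimmest 30% of genes, so a low level there cannot be told from background. Muc4 was not among these, but all its values lay below the lowest array median, 4.90. Its level over background was not tested. Muc4 and Muc20 are overlapping neighbours on opposite strands in the annotation.

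Among the uroplakins, Upk1a, the other tetraspanin, lay between 5.05 and 5.53, and Upk3a between 4.98 and 5.35. The largest difference of either in any of the 5 contrasts was 0.22. Upk2, the partner of Upk1a, had 5.35 and 5.47 in siControl and 5.27 and 5.63 in siKlf4 without TGFβ, and 5.70 and 6.04 against 5.59 and 5.44 when TGFβ was given. Its differences of 0.46 ± 0.15 under TGFβ in siControl and -0.36 ± 0.15 under siKlf4 with TGFβ had the same signs as those of Upk1b and Upk3b. Under siKlf4 without TGFβ and under TGFβ in siKlf4 it had 0.04 ± 0.15 and 0.06 ± 0.15, opposite in sign to theirs. Upk1b and Upk3b were thus the uroplakins with differences above 1 log2 unit, and Upk3a, the bladder partner of Upk1b, had -0.08 as its largest.

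A gene is called here where its limma p, adjusted by Benjamini-Hochberg over all genes, is under 0.05. Without TGFβ, 3 of the 10 genes were called lower under siKlf4 (Lgals4, Muc1 and Upk1b), where 9.71% of all genes were called lower and 9.98% higher. With TGFβ 4 were called lower (these and Upk3b), where 11.9% of all genes were lower and 12.3% higher. Under TGFβ in siControl, 3 were called higher (Muc4, Upk1b and Upk3b) and 1 lower (Muc1), against 5.81% and 6.65% of all genes. The Muc1 difference there stayed between -0.76 and -0.61 over the alternatives. Its call and that of Muc4 were nevertheless lost without any 1 of the 4 arrays compared. Muc4's call was also lost without siKlf4 with TGFβ replicate 1 or 2. Such fits leave 1 array in a group and have less power. Under TGFβ in siKlf4, 2 were called lower (Muc1 and Upk3b), against 6.87% of all genes lower and 6.01% higher. For the interaction 2 were called lower (Upk1b and Upk3b), against 0.978% lower and 0.547% higher. The genes were chosen by these same contrasts, and contrasts that share a group share its arrays, so nothing is read from the counts. The medians over the 10 genes, in the order of these contrasts, were 0.00, -0.27, 0.21, -0.06 and -0.27, beside 0.00, -0.03, 0.02, -0.02 and -0.03 over all genes.

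The genes whose array by array pattern was closest to each of the 4 were found as those with the smallest mean absolute difference between values centred on the gene's own mean over the 8 arrays. For Lgals4 these were Cyp2s1 (0.109 log2 units), Vsig1 (0.122) and Hpx (0.194), a cytochrome P450, a cell adhesion molecule of gastric epithelium and hemopexin. For Muc1 they were Neurl1b (0.100), Uap1l1 (0.156) and Cyp4a12b (0.194). Upk1b had no equally close neighbour, with Ugt2b35 at 0.291, Pik3c2g at 0.353 and Aldh1a1 at 0.360. For Upk3b they were Gbp4 (0.0832), Clic5 (0.190) and Scnn1a (0.198), an interferon-inducible guanylate-binding protein, an intracellular channel protein of microvilli and a subunit of the epithelial sodium channel. These genes share the pattern because they were picked by it. The siKlf4 difference of Cyp2s1 was -3.50 without and -3.36 with TGFβ, whereas that of Gbp4 was -0.37 without and -1.70 with it.

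**Figure D3:**
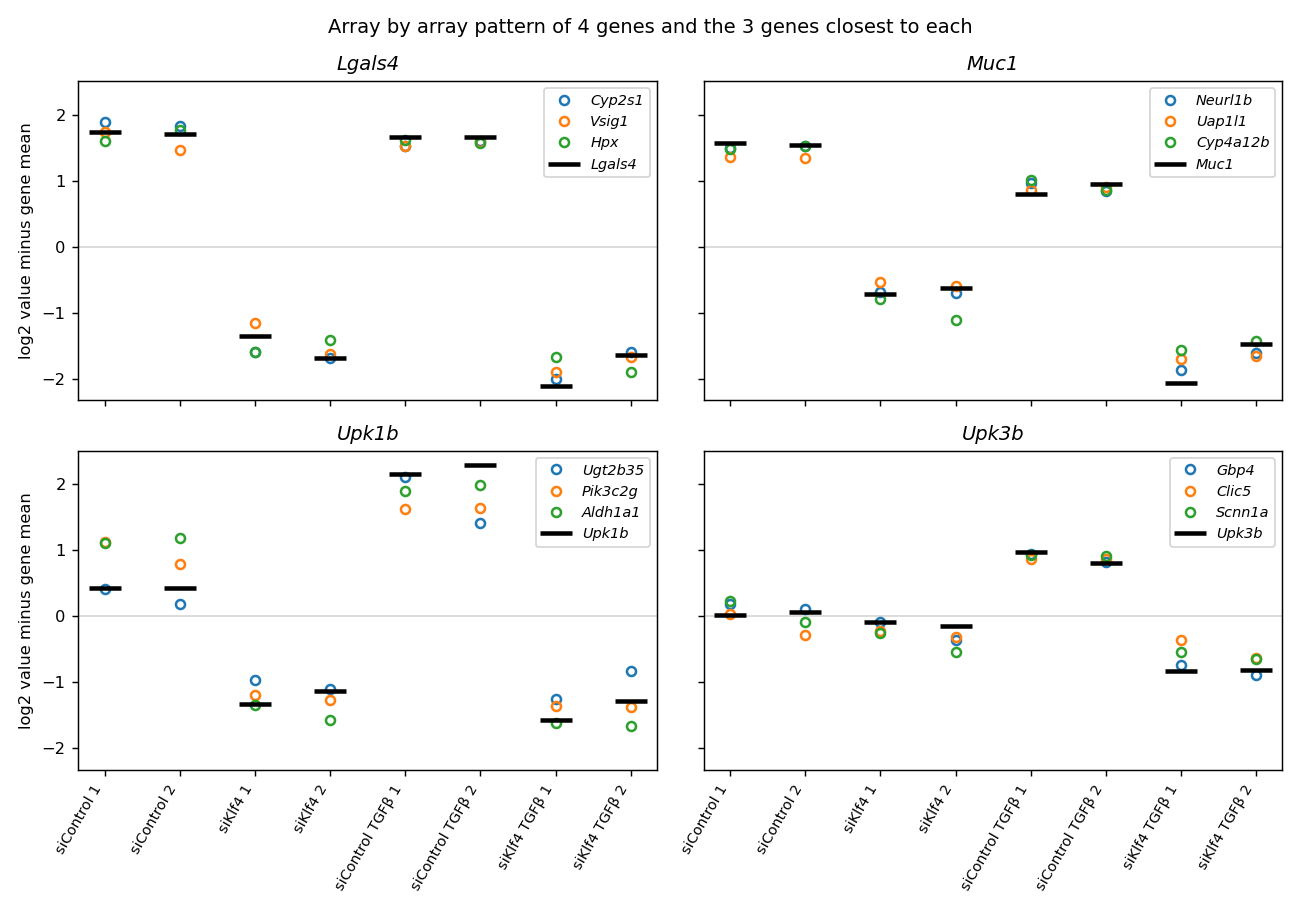
Log2 values minus the gene's mean (vertical axis) in each of the 8 arrays (horizontal axis) for Lgals4, Muc1, Upk1b and Upk3b (black bars) and, as circles, the 3 genes closest to each. Lgals4 and Muc1 drop in all siKlf4 arrays, and Upk1b and Upk3b peak in the siControl arrays with TGFβ.

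Genes that make, bind or accompany these surface proteins were read from 7 lists with 155 measured genes, none of them one of the 10. Under siKlf4 without TGFβ, 36 of the 155 (23.2%) were called lower and 24 (15.5%) higher, beside 9.71% and 9.98% of all genes. With TGFβ it was 36 lower and 25 (16.1%) higher, beside 11.9% and 12.3% of all genes. In both contrasts 32 genes (20.6%) were lower and 18 (11.6%) higher, beside 7.65% and 7.95% of all genes. The lists were chosen with results of these data known. These contrasts do not share arrays. All adjusted p-values that follow are from limma over all genes, and each pair of values is given first without and then with TGFβ.

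The other mucins and sialomucins mostly did not pass the test, with 2 of 15 called lower in each siKlf4 contrast and 1 higher. Muc5b, a gel-forming mucin, fell by 0.78 and 0.70 (limma adjusted p of 2.06e-04 and 3.04e-04). Muc13, a membrane mucin of the gut, fell by 0.38 and 0.46 (limma adjusted p of 0.0111 and 0.00327), but it was among the dimmest 30% of genes and its first call was lost without siControl replicate 1, at 0.0643. Mcam, an adhesion molecule of the immunoglobulin family rather than a true mucin, rose by 2.14 and 1.25 (limma adjusted p of 1.48e-06 and 1.45e-05). Muc2, the main intestinal gel mucin, had differences of 0.16 and -0.09 and did not pass.

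The enzymes of mucin-type O-glycosylation moved both ways, with 7 of 33 higher and 6 lower without TGFβ and 7 higher and 3 lower with it, and medians of 0.02 and -0.03. Fut2, which adds the terminal fucose of the H antigen in secretory epithelia, fell by 1.04 and 1.41 (limma adjusted p of 8.26e-04 and 9.26e-05). Gcnt1, the core 2 branching enzyme, fell by 1.08 and 0.74 (limma adjusted p of 6.45e-04 and 0.00452). The sialyltransferase gene St3gal2 rose by 0.93 and 0.98 (limma adjusted p of 1.09e-04 and 4.91e-05). St6galnac4, another sialyltransferase, rose by 1.56 without TGFβ (limma adjusted p of 0.00145) and had a difference of 0.54 with it, which did not pass at 0.156.

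Of 15 measured partners, kinases and sheddases of membrane mucins, 2 were lower and 4 higher without TGFβ and 3 were lower and 3 higher with it. The count lower was 1 without siControl replicate 1 or siKlf4 replicate 2 in the first contrast, and 1 without siControl with TGFβ replicate 1 or either replicate of siKlf4 with TGFβ in the second. Erbb3, a receptor that pairs with ErbB2, fell by 1.56 and 1.04 (limma adjusted p of 4.30e-06 and 2.46e-05), while Erbb2 had differences of 0.02 and -0.20 and did not pass. Src, a kinase that phosphorylates the tail of Muc1, rose by 0.97 and 0.76 (limma adjusted p of 3.76e-05 and 1.02e-04), and Jup, the gene of γ-catenin, by 0.63 and 0.48 (4.07e-04 and 0.00153). Adam9, a membrane protease, was named after its values were seen: it rose under the TGFβ label, by 2.11 in siControl and 2.21 in siKlf4 (limma adjusted p of 2.35e-05 and 1.07e-05).

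Among 10 other galectin genes, 2 were lower and 1 higher without TGFβ, and 4 lower and 1 higher with it. The 4 became 2 without siControl with TGFβ replicate 1 or either replicate of siKlf4 with TGFβ, and the 1 higher became 0 without any 1 of the 4 arrays with TGFβ. The 2 lower without TGFβ became 1 without siControl replicate 1 or siKlf4 replicate 2. Lgals2, which like Lgals4 is known from the gut, had values of 11.72 and 11.42 in siControl and 10.49 and 10.11 in siKlf4, and it fell by 1.27 and 1.32 (limma adjusted p of 1.80e-04 and 9.68e-05). Lgals9 had a difference of -0.18, which did not pass at 0.175, and fell by 0.64 with TGFβ (limma adjusted p of 3.22e-04). Lgals3, which binds Muc1, fell by 0.36 and 0.38 (limma adjusted p of 0.0154 and 0.00896), but both calls were lost when single arrays were left out: the first without siControl replicate 1 (0.0874) or siKlf4 replicate 2 (0.0649), the second without siControl with TGFβ replicate 1 (0.0793) or siKlf4 with TGFβ replicate 1 (0.0638) or 2 (0.0512). Lgals12, known from fat, had differences of 0.04 and 0.05. The fall of Lgals2 was smaller than that of Lgals4, though a difference between the 2 was not tested.

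Among 26 other tetraspanins, the family of Upk1a and Upk1b, 7 were lower and 6 higher without TGFβ and 8 were lower and 8 higher with it. The 8 higher became 5 without either replicate of siControl with TGFβ or without siKlf4 with TGFβ replicate 2. Tspan15, a partner of the sheddase ADAM10, had values of 9.04 and 9.20 in siControl, 7.11 and 7.10 in siKlf4 without TGFβ, and 9.41 and 9.60 against 6.58 and 6.50 when TGFβ was given. Its siKlf4 differences were -2.01 and -2.96 (limma adjusted p of 1.90e-06 and 2.57e-07). As with Upk1b, the highest arrays were those of siControl with TGFβ. The lowest arrays of Tspan15 were those of siKlf4 with TGFβ, whereas the 2 siKlf4 groups of Upk1b overlapped. Tspan8, known from gut and tumour epithelia, fell by 1.61 and 1.90 (limma adjusted p of 8.45e-06 and 2.08e-06), and Tspan6 rose by 0.53 and 1.09 (0.00594 and 5.77e-05). Tspan12 had siKlf4 differences of -0.04 and 0.12 and did not pass.

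Of 35 genes of the apical membrane, its microvilli and its vesicles, 11 were lower and 4 higher without TGFβ and 10 lower and 4 higher with it, with medians of -0.10 and -0.11. Mep1a, a brush border metalloprotease, fell by 3.50 and 3.77 (limma adjusted p of 6.43e-07 and 2.57e-07). Cdhr5 and Cdhr2, the protocadherins that link the tips of microvilli, had differences of -2.28 and -1.35 for the former and -1.38 and -1.03 for the latter and fell in both contrasts (limma adjusted p from 6.92e-07 to 1.37e-04). Eps8, which caps and bundles actin in microvilli, fell by 0.72 and 1.41 (limma adjusted p of 2.85e-04 and 3.52e-06). The genes that rose included Ceacam1, an adhesion molecule, by 1.06 and 1.12, Mal, a raft protein of apical transport, by 0.96 and 1.32, and Myo5b, the motor of recycling vesicles, by 1.02 and 0.86 (limma adjusted p from 5.68e-06 to 1.35e-04), all 3 named after their values were seen. Ceacam1, between 3.38 and 4.97, was among the dimmest 30% of genes. Rab11a, which works with Myo5b, had differences of -0.03 and 0.06 and did not pass.

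Of 22 transcription factor genes known for urothelial or glandular epithelium, 7 were lower and 1 higher in each siKlf4 contrast. The intestinal factor Cdx2 had values of 8.75 and 8.84 in siControl and 7.06 and 7.24 in siKlf4, and it fell by 1.65 and 1.53 (limma adjusted p of 7.94e-06 and 7.20e-06). Foxa2 fell by 1.10 and 1.62, Ehf by 1.60 and 1.52 and Hnf4a by 1.29 and 1.35 (limma adjusted p from 1.30e-05 to 4.47e-04). The single gene that rose was Rxra without TGFβ, by 0.41 (limma adjusted p of 0.0154), a call lost without siControl replicate 1 (0.0522) or 2 (0.0642) or siKlf4 replicate 2 (0.0953), and Elf3 with it, by 1.30 (limma adjusted p of 1.08e-04), both named after their values were seen. Among factors of the urothelium, Trp63 had differences of -0.02 and 0.19, Gata3 of 0.55 and -0.10 and Grhl3 of -0.01 and -0.39, and none of these passed the test.

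**Figure D4:**
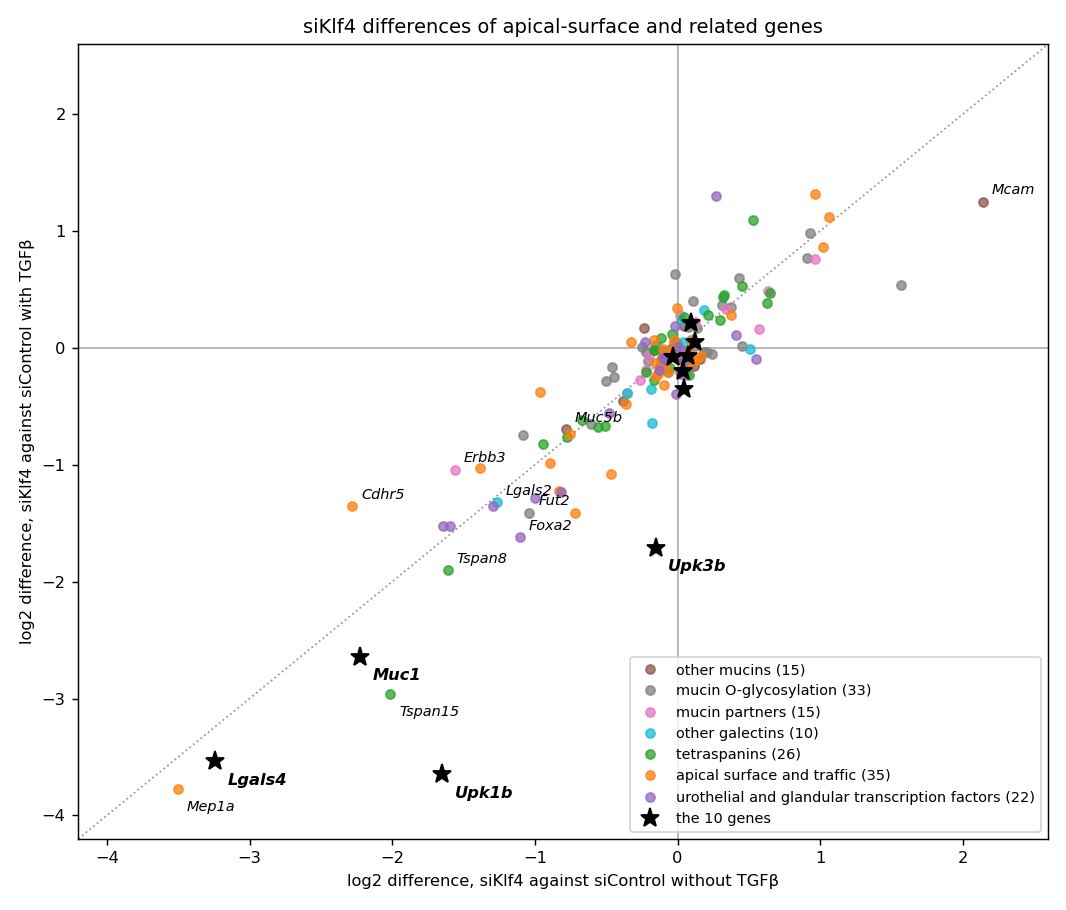
Log2 difference under siKlf4 without TGFβ (horizontal axis) and with TGFβ (vertical axis) for the 155 genes of the 7 lists (coloured points) and the 10 surface genes (stars); the dotted line marks equal differences, and a gene in 2 lists is drawn in both. Lgals4, Muc1 and Mep1a lie far down and near the line, while Upk1b, Upk3b and Tspan15 lie below it.

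Some marker genes of the gut were lower under siKlf4. The mean log2 value of Vil1, Cdx2, Fabp2, Lgals2, Cdh17 and Mep1a was 8.69 and 8.58 in siControl and 7.47 and 7.39 in siKlf4 without TGFβ, and 8.23 and 8.25 against 7.15 and 7.12 when TGFβ was given. Of these 6, limma called 4 lower and 0 higher without TGFβ (Cdx2, Lgals2, Mep1a and Vil1) and 3 lower and 0 higher with it (all but Vil1 of these), beside the 9.71% and 11.9% of all genes called lower. Vil1 had differences of -0.32 and 0.05, and its call was lost without siControl replicate 1 (limma adjusted p of 0.0975), without siKlf4 replicate 2 (0.0973) and in the fit on the 4 arrays (0.0857). Cdh17 had differences of -0.24 and 0.21, and Fabp2, among the dimmest 30% of genes, of -0.23 and -0.27. Under TGFβ in siControl cells the mean of these markers was lower, while Lgals4 was nearly level. There limma called 2 of the 6 lower (Cdh17 and Mep1a) and 0 higher, beside 6.65% and 5.81% of all genes. Lgals2, at -0.18, was not called. The part of these markers in the differences of Lgals4 and Muc1 was not tested. Among markers of the urothelium other than uroplakins, Krt20 rose by 1.11 and 1.18 (limma adjusted p of 1.43e-05 and 5.68e-06), opposite to Upk1b. Of the 6 in that list, 1 was called higher and 1 lower in each siKlf4 contrast, the latter in the direction of Upk1b. The medians of the list were -0.07 and -0.09. Krt13, Snx31 and Psca lay between 3.97 and 4.69 in all arrays. Of the mesothelial markers, Msln, whose product binds Muc16, had a mean of 9.51, whereas Wt1, Lrrn4 and Calb2 lay between 3.28 and 5.29. The mean over 5 fibroblast markers was 4.54 and 4.67 in siControl against 4.83 and 4.92 in siKlf4 without TGFβ, and 4.61 and 4.66 against 4.70 and 4.87 with it, with 1 of 5 called higher in each siKlf4 contrast (Col1a1, by 1.13 and 0.65). The mean over 4 leukocyte markers was 5.34 and 5.37 against 5.56 and 5.57 without TGFβ, and 5.09 and 5.20 against 5.54 and 5.50 with it, with 1 called higher without TGFβ (Csf1r) and 2 with it (Csf1r and Cd68). Ptprc, the pan-leukocyte marker, lay between 3.61 and 3.83, and the mean over 4 endothelial markers between 4.07 and 4.25. The part of these genes in the results was not tested.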

How the data were processed

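The RNA of 8 arrays of NMuMG cells was analysed, 2 for each of 4 groups taken from the sample labels. Robust Multi-Array (RMA) normalization was applied by the authors, with oligo 1.14.0 named in the submitters' notes on processing. The deposited values are log2 values per probe set. Their base was not given in the sources used here and was read from their range (1.88 to 13.8). RMA tends to compress differences of dim and of very bright probe sets. A measure of signal over background was not given.

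Of 34760 probe sets, 21640 had 1 gene symbol, 1321 several and 11799 were not listed in the platform annotation. Of the first kind, 21553 matched a RefSeq gene by Entrez ID and 0 symbols changed. The probe set with the highest mean was kept for each of 954 genes with more than 1, leaving 19937 genes. The contrasts were fitted with limma 3.58.1 in R 4.3.3 (1 mean per group over all 8 arrays, eBayes, 4 residual and 4.93 prior degrees of freedom) and Benjamini-Hochberg adjustment over all genes, with a threshold of 0.05. The fit was tested on simulated data. Alternatives were the analysis of variance that the study's methods name, a replicate block, a fit on 4 arrays, other eBayes options, 2 normalizations, removal of the dimmest 30% of genes, averaging of probe sets and each array left out in turn. Same-numbered arrays of different groups deviated with correlations from -0.05 to 0.38. These values do not settle whether the numbers mark pairs, and the main fit did not treat them as pairs. No scan date or batch was given in the sources used here.

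Named genes are the 10, Klf4, the 3 closest in pattern to each gene with group means spanning over 1 log2 unit, and from each list up to 4 genes with the largest siKlf4 difference among those called, with 1 or 2 not called. The genes, lists, motifs and rules were chosen with earlier results of these data known. Replicate arrays correlated with r from 0.992 to 0.995 over all probe sets.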

Additional observations from a re-analysis of the deposited data

Results flagged for a closer look

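Upk3b moved up under the TGFβ label in every siControl array and down in every siKlf4 array, an interaction of -1.56 on the log2 scale. Because Upk3b was chosen for such a pattern, this difference was not tested.

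Of the 155 other genes read from lists, 5 had an effect of siKlf4 that differed with TGFβ by limma's interaction term. The interaction was called higher for 2 (1.29%) and lower for 3 (1.94%), beside 0.547% and 0.978% of all genes. Tspan15, a tetraspanin, had an interaction of -0.95 (limma adjusted p of 0.0150), and Mcam, an adhesion molecule, of -0.89 (0.0188). Eps8, an actin-binding protein of microvilli, had -0.69 (0.0297). Cdhr5, a protocadherin of microvilli, had 0.93 (0.0128). Elf3, an epithelial transcription factor named after its values were seen, had 1.03 (0.0396).

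These calls did not hold against the loss of single arrays, in fits that leave 1 array in a group and so have less power. With each of the 8 arrays left out in turn, Eps8 lost its call every time, with limma adjusted p-values from 0.0611 to 0.140. Mcam lost it in 6 of the 8 fits, all but those without siControl replicate 1 and siKlf4 replicate 2, with values up to 0.101. Elf3 lost it in 6, all but those without siControl replicate 2 and siKlf4 replicate 2, with values up to 0.170, and also with the replicate block (0.0600). Tspan15 lost it without siControl with TGFβ replicate 2 (0.0834) and without siKlf4 with TGFβ replicate 1 (0.0685) or 2 (0.0771). Cdhr5 lost it without siControl with TGFβ replicate 1 (0.0666) or 2 (0.0545) and without siKlf4 with TGFβ replicate 2 (0.0715). No sign changed in any of these fits.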

How the results depend on the processing

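No member's direction was reversed in any alternative where either fit called it. This was largely fixed in advance, because the genes were chosen for large falls or interactions in these arrays. The replicate block, the fit on 4 arrays and the eBayes options leave a member's difference as it is. So do the removal of dim genes and the averaging of probe sets. The ranges that follow therefore come from the 2 normalizations and from single arrays left out. The siKlf4 difference of Lgals4 ranged from -3.41 to -3.07 without TGFβ and from -3.77 to -3.30 with it, that of Muc1 from -2.28 to -2.18 and from -2.94 to -2.35, that of Upk1b from -1.75 to -1.55 and from -3.79 to -3.51, and that of Upk3b with TGFβ from -1.79 to -1.62. The count of the 10 genes called lower under TGFβ in siControl was 1, and leaving out single arrays gave 0 to 1. The count called higher there was 3 of 10 and became 2 with the replicate number as a block, with only the 4 arrays of the contrast, with trended and robust eBayes and with cyclic loess normalization, each of which lost Muc4. Upk2 was also called there without siKlf4 replicate 1 or 2. Whether the replicate numbers pair the arrays is not given in the sources used here. The replicate block changed no other call of the 10 genes. Over the 7 lists of other genes, 896 recomputed counts stayed within 1.5 times the reported count and 140 did not, and the cause was not tested. Where 1 array remained in a group, its spread was taken from the other groups. Muc16 and Muc20 are dim, which limits what could be seen of them.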
